A study of Mus musculus with 4 samples.

Results

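The Slit ligands and Robo receptors were described in RNA from the outflow tract, the arterial pole of the embryonic heart and the source of the great artery roots. The 7 members were found by gene symbol (Slit1, Slit2, Slit3, Robo1, Robo2, Robo3 and Robo4), and all 7 had a row among the 45706 genes of the count table. Outflow tracts came from C57BL/6 mice at embryonic day 12.5, either wild type (WT) or Sox17eKO. Sox17eKO embryos lacked Sox17, which encodes an endothelial transcription factor, in aortic root endothelium, where Cre recombinase was driven by an Nfatc1 enhancer, and the labels name no other site of deletion. Each genotype had 2 libraries, each from 10 pooled hearts, and the sources used here did not give the embryos' sex or litters. The comparison was made to look for targets of SOX17.

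Slit proteins are large secreted ligands that bind heparan sulfate and the immunoglobulin domains of Robo receptors such as Robo1 and Robo2. Robo receptors are single-pass membrane proteins best known for steering axons away from the nervous system's midline. Robo1 and Robo2 are broadly expressed in mesenchyme and neurons, Robo3 is mainly a receptor of commissural neurons, and Robo4 is a shorter, divergent member restricted largely to endothelium. In mouse hearts, loss of Slit or Robo genes has been linked to septal defects and bicuspid valves, and human ROBO4 variants have been linked to bicuspid aortic valve with aortic aneurysm.

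The depth, in reads counted within genes, was 12880081 for WT replicate 1, 8113463 for WT replicate 2, 14306550 for Sox17eKO replicate 1 and 21883956 for Sox17eKO replicate 2. Reads counted for no gene made up 22.23% and 20.41% in WT and 34.09% and 29.47% in Sox17eKO. These are shares of the reads listed as in a gene, in none or ambiguous. Sox17, the targeted gene, was at 6.05 and 6.83 CPM in WT and at 2.76 and 2.82 CPM in Sox17eKO (CPM, read counts scaled to a common library size with TMM factors), so it fell by 1.19 on the log2 scale (edgeR adjusted p = 0.00574). Markers of cardiomyocytes, smooth muscle, cushion mesenchyme and endothelium were all detected, and none of their lists had a member at 0 reads in all libraries.

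In Sox17eKO outflow tracts the receptor gene Robo1 rose 1.35-fold, and none of the tested Slit or Robo genes was called lower. Of the 7 members, 5 had enough reads to be tested, and Robo1 was the 1 called by edgeR's quasi-likelihood test at an adjusted p under 0.05. Over all 16570 genes tested, 5.35% were called, 4.13% higher and 1.22% lower in Sox17eKO. Robo2 and Slit2 were also above WT in both Sox17eKO libraries, without passing the test, and Slit3 and Robo4 overlapped between the genotypes. The share of all genes that separate in this way was not counted. With 2 against 2 libraries, separation alone gives no two-sided exact permutation p below 0.33. The 3 genes that stood higher are very long, and long genes as a class were higher in Sox17eKO. A smooth trend on exonic length and on span along the chromosome was then taken out of each library. After that 0 of the 5 were called, where 1.16% of 13351 protein-coding genes were.

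**Figure D1:**
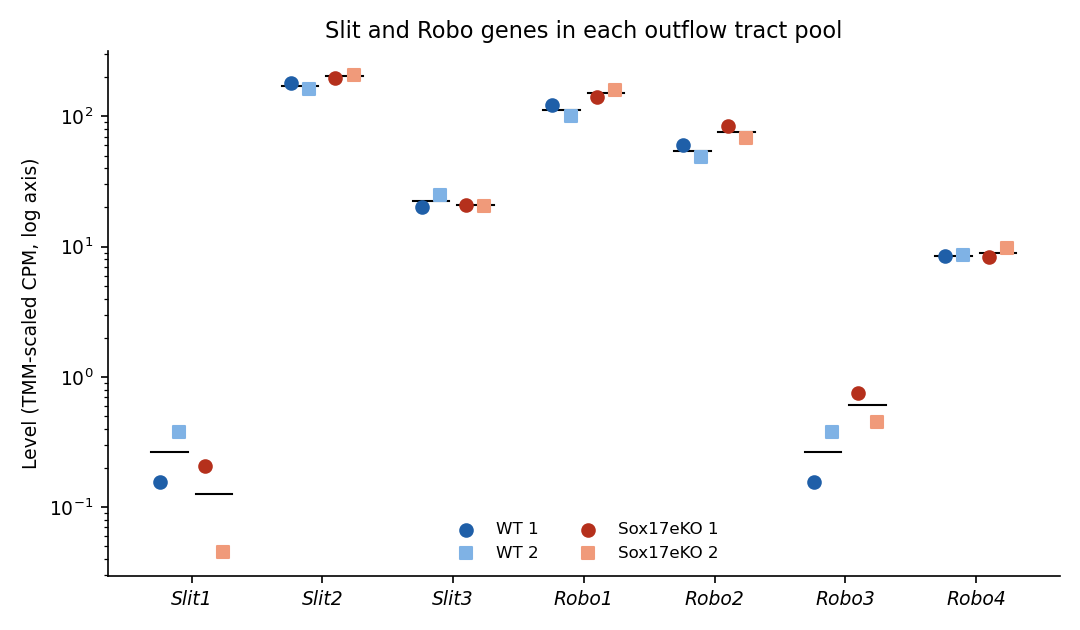
Level of each Slit and Robo gene in the 4 libraries, in TMM-scaled CPM on a log axis. Points are single pools of 10 hearts and black bars are the mean of 2 pools. Both Sox17eKO points lie above both WT points for Slit2, Robo1, Robo2 and Robo3. The share of all genes that separate in this way was not counted.

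Slit2, the ligand gene with the highest level of the 3, was at 182 and 162 CPM in WT replicates 1 and 2 and at 198 and 209 CPM in Sox17eKO replicates 1 and 2. The genotypes did not overlap, and WT replicate 2 was the lowest library. The log2 fold change was 0.24 (standard error, SE, 0.08; 95% interval 0.07 to 0.41), which did not pass over all genes (edgeR adjusted p = 0.0838). Slit2 (ENSMUSG00000031558) maps to chromosome 5 from 47983138 to 48307733 on the plus strand of mm10.

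Slit3, a ligand gene also expressed in mesenchyme and muscle, was at 20.1 and 24.9 CPM in WT and at 21.0 and 20.5 CPM in Sox17eKO. Both Sox17eKO values fell between the WT values. Its log2 fold change was -0.11 (SE 0.13, 95% interval -0.37 to 0.16; edgeR adjusted p = 0.682), and it was 0.04 without WT replicate 2. Slit3 (ENSMUSG00000056427) maps to chromosome 11 from 35121224 to 35708507 on the plus strand.

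Slit1, a ligand gene mainly of the nervous system, was covered by 2 and 3 reads in WT and by 3 and 1 reads in Sox17eKO, too few to pass the filter on low counts. Its ratio of reads at equal depth, Sox17eKO over WT, was 0.456 (95% exact counting interval 0.0905 to 2.12), so no difference was detectable at this depth. Slit1 (ENSMUSG00000025020) maps to chromosome 19 from 41600257 to 41743665 on the minus strand.

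Robo1, the receptor gene with the highest level of the 4, was at 122 and 100.3 CPM in WT replicates 1 and 2 and at 142 and 159 CPM in Sox17eKO replicates 1 and 2. These values did not overlap between the genotypes. Mean levels were 111 ± 15.6 CPM in WT and 150.4 ± 12.2 CPM in Sox17eKO (SD, n = 2 pools each). The log2 fold change was 0.43 (SE 0.09, 95% interval 0.23 to 0.62; edgeR adjusted p = 0.0127). In tissue of mixed cells, more RNA of a gene per cell cannot be told apart from more cells that express it, and for lower levels the converse holds. The 5 markers of cushion mesenchyme summed to 1664 and 1485 CPM in WT and 1797 and 1672 CPM in Sox17eKO, with 1 of 5 called higher (Pdgfra), none called lower, none at 0 reads and a median log2 fold change of -0.07, and their part in the result was not tested. Without WT replicate 2 the log2 fold change of Robo1 was 0.30 and the call was lost (edgeR adjusted p = 0.162), while it held with any other library left out. Robo1 (ENSMUSG00000022883) maps to chromosome 16 from 72308306 to 73046095 on the plus strand.

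Robo2, the gene of a closely related receptor, was at 60.6 and 48.5 CPM in WT and at 83.8 and 68.3 CPM in Sox17eKO. The lower Sox17eKO value, in replicate 2, exceeded the higher WT value, in replicate 1. Its log2 fold change of 0.46 was close to that of Robo1, but with a larger standard error of 0.12 (95% interval 0.20 to 0.73) it lay just outside the threshold (edgeR adjusted p = 0.0509). In a fit on the 13351 protein-coding genes alone, where 5.5% of genes were called, Robo2 passed (edgeR adjusted p = 0.0281). With 1 library left out its log2 fold change ranged from 0.32 without Sox17eKO replicate 1 to 0.64 without WT replicate 1. Robo2 (ENSMUSG00000052516) maps to chromosome 16 from 73891839 to 74411825 on the minus strand, 845.7 kb beyond Robo1 and facing it.

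Robo4, the endothelial member, was at 8.45 and 8.60 CPM in WT and at 8.34 and 9.69 CPM in Sox17eKO. Both WT values lay between the Sox17eKO values. The log2 fold change was 0.09 (SE 0.16; edgeR adjusted p = 0.808), with a 95% interval of -0.25 to 0.44 at 68 to 213 reads per library. Without Sox17eKO replicate 2 the value was -0.03. The 8 endothelial markers summed to 856 and 871 CPM in WT and 786 and 845 CPM in Sox17eKO. Of these 8, Tie1 was called lower and none higher, none was at 0 reads, and the median log2 fold change was -0.13. Robo4 (ENSMUSG00000032125) maps to chromosome 9 from 37401897 to 37415115 on the plus strand.

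Robo3, on the opposite strand with its 3' end 553 bp from that of Robo4 (ENSMUSG00000032128, chromosome 9 from 37415669 to 37433246), was covered by 2 and 3 reads in WT and by 11 and 10 reads in Sox17eKO. It did not pass the filter on low counts. Its ratio of reads at equal depth was 2.39, with a 95% exact counting interval of 0.879 to 8.13 that included no difference. In a fit without the filter its log2 fold change was 1.24 (edgeR adjusted p = 0.528). The 6 neuronal markers summed to 40.3 and 39.2 CPM in WT and 40.1 and 32.2 CPM in Sox17eKO, with none of the 6 called.

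Levels can be compared between genes only per length, and the order then depended on which length was used. The exonic length of a gene, the bases covered by any annotated exon, was 25.43 kb for Slit2, 16.98 kb for Robo2, 16.51 kb for Robo1, 6.85 kb for Robo3, 6.07 kb for Slit3, 5.92 kb for Slit1 and 5.30 kb for Robo4. Noncoding and partial transcript models add to this length, since only 5 of 23 Slit2 transcripts are protein-coding and the longest of these has 9960 bases. Per exonic kilobase, WT levels were 6.76 ± 0.549 CPM for Slit2 and 6.74 ± 0.945 CPM for Robo1 (SD, n = 2), which did not differ beyond their spread. Slit3 at 3.71 ± 0.564 and Robo2 at 3.21 ± 0.505 CPM per exonic kilobase followed, again within their spread, then Robo4 at 1.61 ± 0.0205, and Slit1 and Robo3 were at 0.0452 and 0.039. Per kilobase of the longest coding transcript, Slit2 was at 17.3 ± 1.40, Robo1 at 14.7 ± 2.06, Robo2 at 6.35 ± 0.998, Slit3 at 4.30 ± 0.654 and Robo4 at 1.72 ± 0.0212 CPM in WT. On this scale Robo2 stood above Slit3 in both WT libraries, and Slit2 above Robo1, the latter without overlap but by a small margin. By either scale the outflow tract held Slit2 and Slit3 as ligands and Robo1 and Robo2 as its more abundant receptors, with Robo4 lower.

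A ratio of 2 genes in the same library does not depend on the scaling between libraries. It can still carry a trend on length where the 2 genes differ in length. The trend on exonic length and span, Sox17eKO minus WT on the log2 scale, was 0.34 for Robo1, 0.33 for Robo2 and 0.004 for Robo4. For Slit2 it was 0.38 and for Slit3 0.15, and its part in the ratios was not tested. Robo1 over Robo4, per exonic kilobase, was 4.65 and 3.74 in WT and 5.46 and 5.27 in Sox17eKO, higher in both Sox17eKO libraries. Slit2 over Slit3 was 2.16 and 1.55 in WT and 2.25 and 2.44 in Sox17eKO, without overlap but with WT replicate 1 and Sox17eKO replicate 1 close together. In contrast, Robo1 over Robo2 was 2.08 and 2.13 in WT and 1.74 and 2.40 in Sox17eKO, with both WT values inside the Sox17eKO range. Robo2 over Robo4 overlapped, at 2.24 and 1.76 in WT and 3.13 and 2.20 in Sox17eKO. Two-sided exact permutation tests gave p = 0.33 for the first 2 ratios, 1 for Robo1 over Robo2 and 0.667 for Robo2 over Robo4, and 0.33 is the smallest p that 2 against 2 libraries allow.

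Protein-coding genes were sorted by exonic length into 10 classes of about 1335 genes. Median log2 fold changes ran from -0.16 in the shortest class, of 0.255 to 1.83 kb, to 0.21 in the longest, of 10.1 to 123 kb, and increased at each step. In that longest class 23.7% of genes were called higher and 0 lower. Slit2, Robo1 and Robo2 all belonged to it, with 99.8%, 98% and 98.3% of tested protein-coding genes shorter than they are. Against the class median of 0.21, Robo1 stood 0.22 higher and Robo2 0.25 higher on the log2 scale, and Slit2 stood 0.03 higher. Of the genes in the class, 88.2% had a lower log2 fold change than Robo1, 91.2% a lower one than Robo2 and 56.9% a lower one than Slit2. Slit3 fell in the seventh class, with a median of 0.02, and was 0.13 lower than it at a log2 fold change of -0.11. Robo4 fell in the sixth, with a median of -0.02, and was 0.11 higher. The span of a gene on the chromosome gave a different picture for Slit3, which covers 587.3 kb and is longer than 99.1% of genes by that measure. The median log2 fold change of its span class was 0.16, and Slit3 lay 0.27 below it.

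**Figure D2:**
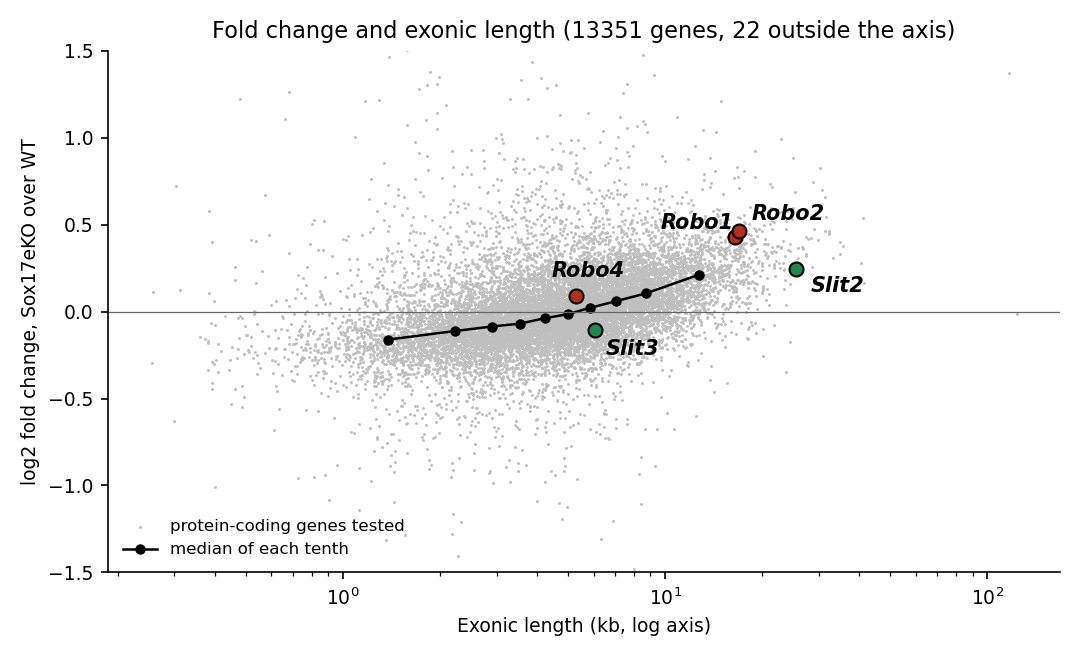
Log2 fold change of each tested protein-coding gene (grey, 13351 genes, 22 beyond the axis at 1.5) against exonic length in kb on a log axis, with the median of each length class in black at its median length. Robo receptors are red and Slit ligands green, and Robo1, Robo2 and Slit2 lie to the right of its last point (0.21), Robo1 (0.43) and Robo2 (0.46) above it and Slit2 (0.24) close to its height.

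The median level of the longest class minus that of the shortest, each relative to the gene's mean over the 4 libraries, was -0.10 and -0.26 on the log2 scale in WT replicates 1 and 2, against 0.17 and 0.19 in the Sox17eKO libraries. The difference between genotypes was 0.36 with a pooled SD of 0.08, and it was 0.28 without WT replicate 2. For Robo1 the trend on exonic length and span came to -0.09, -0.24, 0.17 and 0.17 in the same library order, and its own levels were lowest in WT replicate 2 as well. The share of reads counted for no gene was also higher in both Sox17eKO libraries, and its part in the trend was not tested.

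**Figure D3:**
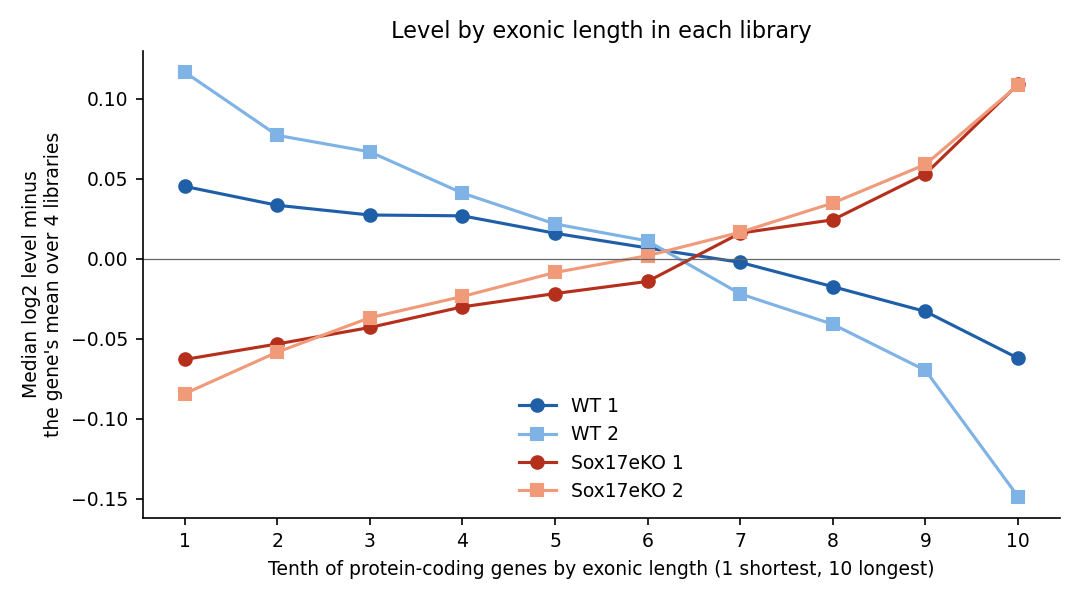
Median log2 level of protein-coding genes relative to each gene's mean over the 4 libraries, by class of exonic length from the shortest (1) to the longest (10), with 1 line for each library. The lines of both WT libraries fall and those of both Sox17eKO libraries climb with length, and WT replicate 2 ends lowest at -0.15.

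Each library was then refitted with its smooth trend on exonic length and span removed. The log2 fold change of Robo1 became 0.10 (SE 0.08, 95% interval -0.05 to 0.26, edgeR adjusted p = 0.597). Robo2 came to 0.15 (SE 0.09, 95% interval -0.05 to 0.35, edgeR adjusted p = 0.516). Slit2 changed sign to -0.13 (SE 0.07; edgeR adjusted p = 0.426), and Slit3 moved to -0.25 (SE 0.13; edgeR adjusted p = 0.393). Robo4 stayed at 0.10 (SE 0.16; edgeR adjusted p = 0.859), since the trend at its length and span was close to 0. Removing such a trend also takes away any difference between genotypes that itself runs with length, so these intervals do not show that the receptors were unaltered.

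How much of each difference was left varied with the length measure. With the longest coding transcript as the length, where 1.33% of genes were called and no member was, the log2 fold change was 0.26 for Robo1 (95% interval 0.10 to 0.42, edgeR adjusted p = 0.107), 0.26 for Robo2 (edgeR adjusted p = 0.277) and 0.00 for Slit2 (edgeR adjusted p = 0.989). With span alone it was 0.17 for Robo1, 0.24 for Robo2, 0.05 for Slit2 and -0.34 for Slit3, and with exonic length alone 0.17, 0.20, -0.12 and -0.14. The 95% interval of Slit3 with span alone was -0.60 to -0.08, and it was not called (edgeR adjusted p = 0.146). With a trend on GC content removed, 8.47% of genes were called, and Robo1 (0.40, edgeR adjusted p = 0.00363) and Robo2 (0.40, edgeR adjusted p = 0.00762) were among them. Slit2 was then at 0.19, Slit3 at -0.04 and Robo4 at 0.13, none of them called.

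**Figure D4:**
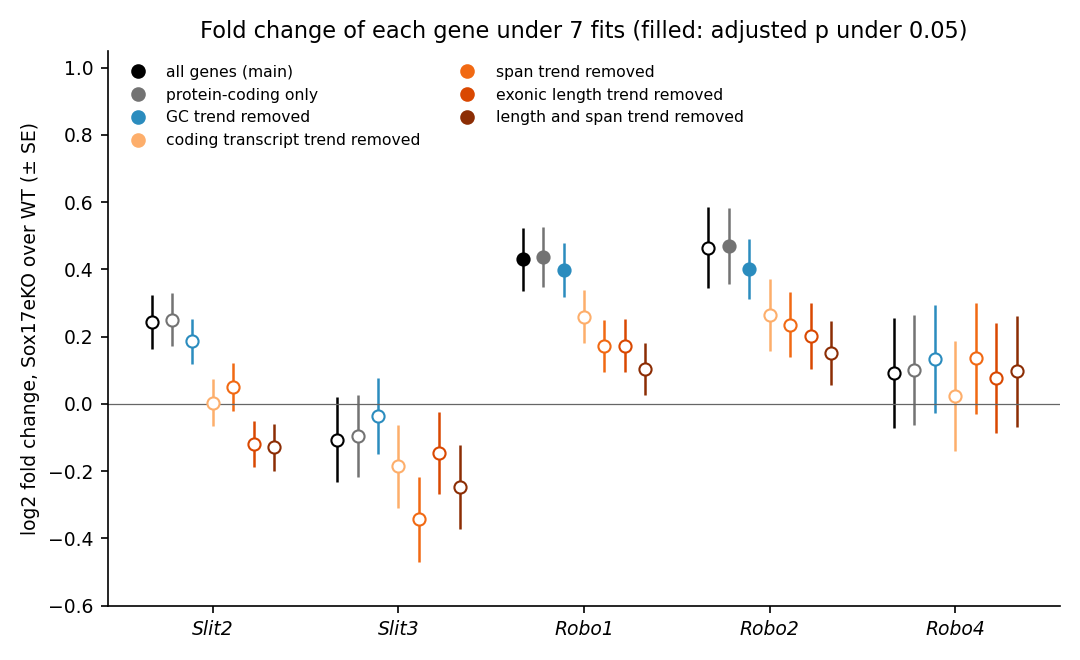
Log2 fold change, Sox17eKO over WT, of the 5 tested members under 7 fits, with bars of 1 standard error and filled points where the edgeR adjusted p is under 0.05. Robo1 is filled in the fits with no length or span term (0.43, 0.44 and 0.40), Robo2 in the protein-coding and GC fits, and all points with a length or span trend removed are open.

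The intracellular and extracellular partners of the pathway were taken from a list of 35 genes, all of which were tested. Of these, 1 was called higher and 1 lower. Over all genes tested 5.35% were called, 4.13% higher and 1.22% lower, so calls were about as frequent among partners as over all genes. The median log2 fold change of the list was -0.01, the same to 2 decimals as over all genes tested. Sdc1, a syndecan whose heparan sulfate chains can bind Slit, fell from 69.3 and 77.9 CPM in WT to 53.9 and 52.9 CPM in Sox17eKO, a log2 fold change of -0.46 (SE 0.08; edgeR adjusted p = 0.00376). With the length and span trend removed its value was -0.42 and it was still called (edgeR adjusted p = 0.00994), and the call was lost without WT replicate 2 (-0.38, edgeR adjusted p = 0.0644). Enah, an actin regulator of the Ena/VASP family that acts downstream of Robo, was at 163 and 149 CPM in WT and 207 and 187 CPM in Sox17eKO, and rose with a log2 fold change of 0.33 (SE 0.08; edgeR adjusted p = 0.0228). Like Robo1 it is long, at 21.5 exonic kilobases, and with the length and span trend removed its log2 fold change was 0.04 (edgeR adjusted p = 0.887). Its call was also lost without WT replicate 2 (0.27, edgeR adjusted p = 0.213) and without Sox17eKO replicate 1 (0.26, edgeR adjusted p = 0.175). None of the other partners passed.

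For each tested member the 3 protein-coding genes with the most similar profile over the 4 libraries were found, by Euclidean distance between mean-centred log2 levels among 12897 genes. Robo1 was nearest to Nrbp2, Stox2 and mt-Nd6 (distances 0.0175, 0.0239 and 0.0241), of 3.89, 18.7 and 0.519 exonic kilobases. Robo2 was nearest to Fam173b, Akap17b and Trmo, at distances of 0.0181, 0.0278 and 0.054. Slit2 was nearest to Camsap2, Matn4 and Uggt1, Slit3 to Rnf8, Vrk3 and Coa7, and Robo4 to Enoph1, Extl3 and Npepps, all at distances of 0.0073 to 0.0241. No member was among the 3 nearest genes of another, and the profiles rest on 4 libraries only.

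Slit2 and Slit3 each carry a copy of the microRNA gene for miR-218 in an intron on the same strand, and miR-218 is known to target Robo1 and Robo2 messages in a feedback loop. The shared mature sequence is shown because both ligand genes can give rise to it, with its seed, bases 2 to 8, in capitals (RefSeq, GRCm38.p6).

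mmu-miR-218-5p: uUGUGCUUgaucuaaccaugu

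The 7-base match to this seed was searched in the longest annotated 3' untranslated region of each member (GENCODE M21, sense strand). It was found at 1 place in Robo1, 2 in Robo2, 2 in Slit2 and 1 in Robo3, and not in those of Slit1, Slit3 and Robo4. Over all 21011 protein-coding genes 13.8% held a match, and 25.1% of those with regions of 1500 to 4500 bases did. The matches in the 2 receptors named as targets are shown with the match in capitals.

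Robo1: ttttggttttaaAAGCACAatc

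Robo2, first match: ttatttggtgatAAGCACAaat

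Robo2, second match: cacggcagacccAAGCACAgct

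A match is a description of the letters and not a measured site. Rows of the microRNA genes held few reads. Mir218-1, inside Slit2, had 5 and 5 reads in WT and 10 and 12 in Sox17eKO, and Mir218-2, inside Slit3, had 0 and 2 in WT and 3 and 0 in Sox17eKO. Such reads cannot be told apart from intronic reads of the host genes, and the mature microRNA was not measured.

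Promoter windows, from 250 bases before to 50 after an annotated start, were present in RefSeq (GRCm38.p6) for Slit2, Slit3, Robo1, Robo2, Robo3 and Robo4, with 3 alternative starts for Robo2. They were searched for the core letters bound by SOX proteins, ACAAT or its reverse complement ATTGT. Of the 8 windows only that of Robo4 held them, at 2 places that begin 225 and 214 bases upstream of the start. The Robo1 window, chr16:72662899-72663198, lies inside the GENCODE M21 gene, which starts at 72308306. The start of that wider Robo1 model was therefore not searched. Among 32851 promoter windows 31% held at least 1 such match and 7.98% held 2 or more. The core letters of ETS factors, GGAA or TTCC, were also searched, and were in each window except that of Slit3 and in 96% of all windows. The Robo4 window, chr9:37401722-37402021 on the plus strand, is shown because it is the endothelial member and the 1 with matches, which are in capitals.

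Robo4: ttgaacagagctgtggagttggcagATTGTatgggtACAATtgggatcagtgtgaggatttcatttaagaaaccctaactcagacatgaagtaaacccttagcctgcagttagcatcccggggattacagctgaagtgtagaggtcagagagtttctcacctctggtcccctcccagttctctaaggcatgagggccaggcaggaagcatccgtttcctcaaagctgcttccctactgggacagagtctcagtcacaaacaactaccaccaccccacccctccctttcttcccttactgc

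Robo4 levels overlapped between the genotypes, and binding of SOX17 was not measured. The start of the widest Robo2 model in RefSeq lies in the window chr16:75447244-75447543, beyond the end of the Robo2 model in GENCODE M21 at 74411825, so reads of upstream Robo2 exons may lie outside the counted gene if the counting used a similar model.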

How the data were processed

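RNA of 4 pooled outflow tract libraries was isolated with TRIzol and made into strand-specific Illumina libraries, according to the labels. The authors' table held unnormalized counts by Ensembl ID as deposited, made with TopHat2, HTSeq and mm10 per the submitters' processing notes; the sources used here gave no version, annotation release or strand setting. Symbols, lengths and coordinates came from GENCODE M21 (GRCm38, the mm10 assembly; 45143 of 45706 genes matched), and promoters and microRNAs from RefSeq (GRCm38.p6).

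Total counts per library, from 8113463 to 21883956, excluded reads listed as in no gene (20.41% to 34.09%) and ambiguous reads (3.38% to 6.22%). Genotypes were compared with edgeR 4.0.16 (R 4.3.3; TMM, filterByExpr, robust quasi-likelihood fit, prior count 0.125), with Benjamini-Hochberg adjustment over 16570 genes and calls under 0.05. Only 2 residual degrees of freedom were available, the spread being moderated across genes, so p-values measure the spread between pools. Counting intervals are exact, at 95%, and cover counting error only. Length, span and GC trends were smooth functions fitted per library with mgcv 1.9.3 and entered as offsets. DESeq2 1.42.0, limma-voom 3.58.1, other scalings and filters, the replicate block and leaving out each library were alternatives. The fits were tested on simulated data. The longest coding transcript, span alone and length removal with a library left out were alternatives chosen after seeing the data.

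Named genes were all members, Sox17, called partners or the 3 partners with the smallest p, the microRNA genes within Slit2 and Slit3, and the 3 nearest profiles of each member with a mean of at least 1 CPM; called markers are named too. A result for 1 partner under this rule is not reported here. The members and lists were chosen with earlier results of these data known. The marker lists covered endothelium, endocardium, smooth muscle, cushion mesenchyme, cardiomyocytes, epicardium, neurons, neural crest and red cells.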

Additional observations from a re-analysis of the deposited data

How the results depend on the processing

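The number of Slit and Robo genes called, 1 of 5, was 3 of 7 with no low-count filter (4.87% of all genes tested there were called), 2 of 3 with DESeq2 (9.11%), and 2 of 5 with a mean of at least 1 CPM (5.94%), without the robust option (3.61%), in protein-coding genes only (5.5%) and with the GC trend removed (8.47%). It was 0 of 5 with any length or span trend removed, where 1.08% to 2.74% of genes were called (exonic length with span, exonic length, longest coding transcript, span, or length, span and GC). It moved with a library left out, as did the number of calls over all genes, and no member was called in any such fit with length and span removed. The number of partners called, 2, was 7 with the GC trend removed (8.47% of all genes). It was 1 with length and span, exonic length, the longest coding transcript or span removed (1.08% to 2.74%). The number of partners called also moved with a library left out. Slit2 passed with no low-count filter (0.25, edgeR adjusted p = 0.048) and changed sign with length and span (-0.13), exonic length (-0.12) and length, span and GC (-0.14) removed. Robo1 lost its call at 0.10 with length and span, 0.17 with exonic length, 0.10 with length, span and GC, 0.26 with the longest coding transcript and 0.17 with span removed. Robo2 passed at 0.47 with no low-count filter, 0.47 with a mean of at least 1 CPM, 0.46 without the robust option, 0.47 with DESeq2, 0.47 in protein-coding genes only and 0.40 with the GC trend removed. The cause was not tested.

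With a library left out, log2 fold changes ranged from 0.17 to 0.33 for Slit2 (called without WT replicate 1), -0.27 to 0.044 for Slit3, 0.30 to 0.58 for Robo1, 0.32 to 0.64 for Robo2 (called when WT replicate 1 or Sox17eKO replicate 2 was absent) and -0.031 to 0.19 for Robo4. With length and span removed as well they ranged from -0.17 to -0.094 for Slit2, -0.46 to -0.065 for Slit3, 0.018 to 0.18 for Robo1 (0.037 without WT replicate 2), -0.002 to 0.30 for Robo2, -0.025 to 0.19 for Robo4 and -0.045 to 0.11 for Enah. Over all genes, 886 calls became 192 without WT replicate 2, 472 without Sox17eKO replicate 1, 598 without the robust option, 517 with limma-voom and 424 of 4656 genes with an adjusted p in DESeq2, which gave none for Slit1, Slit3, Robo3 and Robo4. The split of calls was 684 higher and 202 lower, 769 and 111 with library size scaling, 756 and 463 without WT replicate 1, 172 and 20 without WT replicate 2, 664 and 467 with the GC trend removed and 82 and 73 with length and span removed.

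The labels' replicate numbers were shared by the genotypes, and the labels did not say whether they pair the pools. Deviations from the group means of WT replicate 1 and Sox17eKO replicate 1 had a correlation of -0.032 across 16570 genes. With so few pools in each genotype, this correlation cannot decide whether the replicate numbers pair the pools. With the replicate block 1684 genes were called, 10.2% of those tested, against 5.35% without it. In that fit 3 members and 4 partners were called, with Slit2 at 0.25 (edgeR adjusted p = 0.0301) and Robo2 at 0.48 (edgeR adjusted p = 0.000162). The depth of 1 to 11 reads limited Slit1 and Robo3.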

Other observations

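Among marker lists not set beside a member above, endocardium had 0 of 4 genes called. Smooth muscle had 1 of 4 called lower (Cnn1), cardiomyocytes 1 of 5 (Nppa), epicardium 1 of 4 (Upk3b) and red cells 1 of 5 (Hbb-y), and none had a gene called higher. The red cell genes summed to 2331 and 2926 CPM in WT and to 1539 and 2001 CPM in Sox17eKO. Of the 4 neural crest and Schwann precursor genes, 2 were tested and 0 were called. The part of these cell types in the Slit and Robo values was not tested.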
